A study of Mus musculus with 6 samples.

Results

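The FOXO transcription factors Foxo1, Foxo3 and Foxo4 were followed together with 5 genes known for their tie to these factors in T cells, namely Klf2, S1pr1, Il7r, Sgk1 and Bach2. The 8 genes were chosen by name, with earlier results of these data known. All 8 were found among the 22939 genes of the table and passed the filter on low counts that left 13463 genes to test. RNA was sequenced from 3 control (ctrl-Treg) and 3 sorafenib (Sora-Treg) libraries of mouse regulatory T (Treg) cells. Sorafenib (Sora) is a kinase inhibitor used against liver cancer, and the study asked whether it acts on Treg cells through VEGFR, AKT and Foxo1.

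Both groups started from naive CD4 T cells of spleen and lymph nodes. The mice were C57BL/6J animals that carry GFP knocked into Foxp3, so that GFP marks cells that express it. Both groups received anti-CD3 bound to the plate and anti-CD28, were polarized with TGF-β1 together with anti-IFN-γ and anti-IL4, and were sorted for GFP+ cells. The Sora-Treg cultures also received Sora, at a concentration and for a time that are not given for these libraries. The study describes its mice as female, and the age of the reporter mice is not given. The cells are therefore Treg cells induced in culture and not taken from a tumor or tissue. Nothing says whether the replicates came from separate cultures or animals, so p-values measure only the spread between these libraries, which may be technical.

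FOXO proteins are kept out of the nucleus when AKT or the related kinase SGK1 phosphorylates them and 14-3-3 proteins bind them. When this input is low they enter the nucleus and drive genes of the resting T cell. Among these genes, Klf2 encodes a transcription factor of resting and circulating T cells, which in turn drives S1pr1, the receptor that lets T cells leave lymphoid organs. Il7r encodes the IL-7 receptor alpha chain, which keeps naive and memory T cells alive and is typically low on Treg cells. Bach2 encodes a repressor that restrains effector programs in T cells, Treg cells included. RNA levels do not show the phosphorylation or location of a FOXO protein.

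Because Klf2 and Il7r are both textbook FOXO1 targets and moved in opposite directions here, the 250 bases before their start sites are shown first. They are RefSeq sequences on GRCm38.p6, read 5′ to 3′ along the gene, from chr8:72318812-72319061 on the plus strand for Klf2 and from chr15:9529877-9530126 on the minus strand for Il7r. Capitals mark the forkhead core AAACA, which reads TGTTT when it lies on the other strand.
Klf2: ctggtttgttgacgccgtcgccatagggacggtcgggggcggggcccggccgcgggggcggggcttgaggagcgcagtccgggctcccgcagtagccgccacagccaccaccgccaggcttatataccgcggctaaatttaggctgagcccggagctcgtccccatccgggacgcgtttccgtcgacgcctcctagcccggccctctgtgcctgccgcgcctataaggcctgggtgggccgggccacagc
Il7r: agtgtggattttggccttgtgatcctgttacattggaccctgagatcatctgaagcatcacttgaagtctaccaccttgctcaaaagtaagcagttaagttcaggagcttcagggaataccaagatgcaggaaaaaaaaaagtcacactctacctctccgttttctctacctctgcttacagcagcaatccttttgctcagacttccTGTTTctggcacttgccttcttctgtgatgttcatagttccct
The Klf2 window held no core and was 71.2% G or C, whereas the Il7r window held 1 core and was 44.0% G or C, against a median of 52.4% over 32851 RefSeq windows. The core was found on either strand in 46.4% of all windows, so a core is common in windows of this length. Windows were at hand for 6 of the 8 genes, namely Foxo1, Foxo3, Klf2, Il7r and Bach2 with 1 each and Sgk1 with 6. The core was in 6 of these 11 windows, those of Foxo1, Il7r and Bach2 and 3 of Sgk1. The longer FOXO motifs GTAAACA and CAAAACA, which both contain the core, were found on either strand in 3.17% and 5.56% of all windows and in none of these 11. A match describes letters and not binding, and these windows leave out introns and distant elements.

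Sora-Treg cells had higher RNA levels of 7 of the 8 genes and a lower level of Klf2. Sgk1 rose 4.56-fold and Il7r 2.46-fold, followed by Foxo4 at 1.68-fold and Bach2 at 1.41-fold, while S1pr1, Foxo1 and Foxo3 rose by 1.19-fold or less and Klf2 fell to 0.694 of its control level. All 8 passed an adjusted p of 0.05 by the quasi-likelihood test of edgeR, with 7 higher and 1 lower, in a comparison in which 59.6% of all tested genes passed, 29.7% higher and 29.9% lower. With a fold over 2 required as well, 2 of the 8 passed, both higher, against 6.3% (higher) and 4.97% (lower) of all tested genes. For none of the 8 did any Sora-Treg library fall within the ctrl-Treg range, which held for 63.7% of all tested genes. These shares of all tested genes were not matched for expression level, which affects how readily a gene is called. The median log2 fold change was 0.37 over the 8 genes and -0.0035 over all tested genes. Levels below are CPM (counts relative to the library size) scaled by TMM, a method that sets most genes to no change on average. With library totals alone the log2 fold changes of all genes were lower by a median of 0.12, and the 8 genes then had a median of 0.26 and all tested genes one of -0.12. That scaling ended the call of Foxo3, the only one of the 8 calls it ended.

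**Figure D1:**
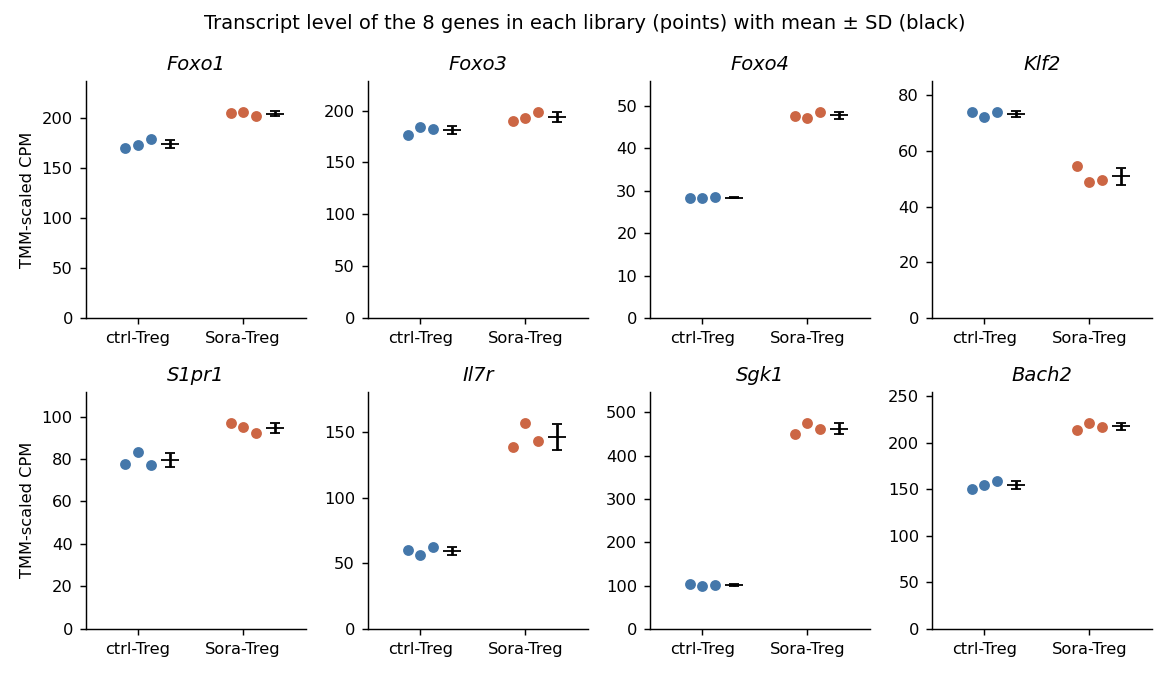
Each panel plots the TMM-scaled CPM of 1 gene (vertical axis, from 0) in the 3 ctrl-Treg and 3 Sora-Treg libraries (colored points), with the group mean and SD in black. Klf2 is lower in every Sora-Treg library, between 48.6 and 54.4 CPM against 72.0 to 73.9, and the other 7 genes are higher in every Sora-Treg library (Foxo3 with this scaling, not with library totals).

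Foxo1 encodes the main FOXO factor of T cells and is the member the study centers on. Its level was 170.2, 173 and 178 CPM in ctrl-Treg 1, 2 and 3 and 205, 206 and 201 CPM in Sora-Treg 1, 2 and 3, each number being 1 library. The Sora-Treg libraries were all above the ctrl-Treg libraries, by a small step. Means were 174 ± 4.13 and 204 ± 2.20 CPM (SD, n = 3 each), with a log2 fold change of 0.23 ± 0.03 (SE) and an adjusted p of 8.77e-07 by edgeR. With library totals alone the log2 fold change was 0.12 (edgeR adjusted p = 0.00217).

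Foxo3 encodes a FOXO factor with targets that overlap those of FOXO1. Ctrl-Treg 1, 2 and 3 held 177, 184 and 182 CPM and Sora-Treg 1, 2 and 3 held 190.0, 193 and 199 CPM. The nearest libraries of the groups, ctrl-Treg 2 and Sora-Treg 1, lay close together. Means were 181 ± 3.67 and 194 ± 4.41 CPM, with a log2 fold change of 0.10 ± 0.03 (SE) and an adjusted p of 0.00965 by edgeR. The call depended on the processing, since the log2 fold change was -0.0168 with library totals alone (edgeR adjusted p = 0.658) and lost significance without ctrl-Treg 1 (0.0847, adjusted p = 0.0564 by edgeR) or without Sora-Treg 3 (0.0816, adjusted p = 0.0629 by edgeR). 

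Foxo4 encodes the third FOXO factor expressed here and, unlike the others, lies on chromosome X. Ctrl-Treg 1, 2 and 3 held 28.4, 28.3 and 28.5 CPM and Sora-Treg 1, 2 and 3 held 47.6, 47.1 and 48.6 CPM. Libraries within a group were nearly equal and the groups stood far apart. Means were 28.4 ± 0.0955 and 47.8 ± 0.734 CPM, and the log2 fold change of 0.75 ± 0.05 (SE), with an adjusted p of 9.38e-12 by edgeR, was the largest of the 3 factors. Foxo6, the remaining family member, had 0 to 6 counts per library and was not tested.

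How the 3 factors share the FOXO transcript pool was compared per length, as each factor's share of the summed FPKM of Foxo1, Foxo3, Foxo4 and Foxo6. Foxo1 made up 49.2, 48.7 and 49.7% in ctrl-Treg 1, 2 and 3 and 49.6, 49.5 and 48.2% in Sora-Treg 1, 2 and 3. These values overlapped, with means of 49.2 ± 0.457% and 49.1 ± 0.784% and a two-sided exact permutation p of 0.8. Foxo3 went from 41.9 ± 0.431% to 38.2 ± 0.636% and Foxo4 from 8.84 ± 0.157% to 12.7 ± 0.151% (SD, n = 3). Neither pair of groups overlapped, and the exact permutation p was 0.1 for each (adjusted over the 3 factors, 0.15), the smallest that 3 libraries against 3 can give. The shares of a library add up to a fixed total, so they do not move independently. Foxo3 itself was at 27.7 FPKM in ctrl-Treg and 27.4 FPKM in Sora-Treg cells. Foxo1 went from 32.6 to 35.3 FPKM and Foxo4 from 5.85 to 9.09 FPKM. The Foxo4 share was higher by 3.82 percentage points and the Foxo3 share lower by 3.76. With exon lengths from GENCODE M21 the differences were 6.18 and -5.16 percentage points, and the Foxo1 share no longer overlapped, at 38.1 to 38.9% in ctrl-Treg and 36.6 to 37.9% in Sora-Treg libraries (exact permutation p = 0.1). Foxo3 rather than Foxo1 then held the largest share in both groups (45.9% against 38.5% in ctrl-Treg cells).

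**Figure D2:**
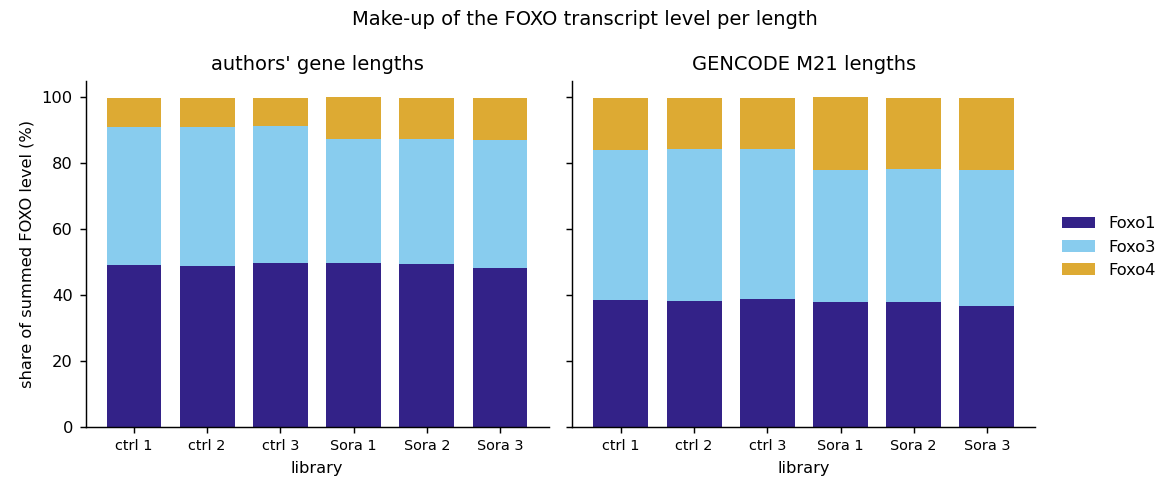
Stacked bars show the share (%) of the summed FPKM of Foxo1, Foxo3, Foxo4 and the barely detected Foxo6 that each of the first 3 held in each library, with the authors' gene lengths (left) and GENCODE M21 lengths (right). The Foxo4 part is larger in each Sora-Treg library, 12.5 to 12.8% against 8.73 to 9.02% with the authors' lengths.

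Among the target genes, Klf2 was the member that fell. Ctrl-Treg 1, 2 and 3 held 73.8, 72.0 and 73.9 CPM and Sora-Treg 1, 2 and 3 held 54.4, 48.6 and 49.4 CPM. Sora-Treg 1 was the highest of its group and still well below each ctrl-Treg library. Means were 73.2 ± 1.04 and 50.8 ± 3.13 CPM, with a log2 fold change of -0.53 ± 0.05 (SE) and an adjusted p of 1.03e-09 by edgeR.

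S1pr1, the egress receptor that depends on KLF2, did not move with Klf2. Ctrl-Treg 1, 2 and 3 held 77.7, 83.2 and 77.3 CPM and Sora-Treg 1, 2 and 3 held 97.1, 94.9 and 92.4 CPM. Each Sora-Treg library was above each ctrl-Treg library. Means were 79.4 ± 3.29 and 94.8 ± 2.36 CPM, with a log2 fold change of 0.25 ± 0.04 (SE) and an adjusted p of 9.00e-06 by edgeR. With library totals alone it was 0.14 (edgeR adjusted p = 0.00405).

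Il7r, the IL-7 receptor chain, rose most among the targets. Ctrl-Treg 1, 2 and 3 held 59.7, 56.4 and 62.3 CPM and Sora-Treg 1, 2 and 3 held 138, 157 and 143 CPM. The Sora-Treg values were all more than 2 times the highest ctrl-Treg value. Means were 59.5 ± 2.97 and 146 ± 9.75 CPM, with a log2 fold change of 1.30 ± 0.05 (SE) and an adjusted p of 1.19e-16 by edgeR.

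Sgk1 encodes a serine/threonine kinase activated through PI3K and mTOR complex 2, which phosphorylates FOXO proteins as AKT does. It had the largest change of the 8 genes. Ctrl-Treg 1, 2 and 3 held 104, 98.8 and 102 CPM and Sora-Treg 1, 2 and 3 held 450, 476 and 462 CPM. Every Sora-Treg library was more than 4 times the highest ctrl-Treg library. Means were 101 ± 2.50 and 462 ± 13.2 CPM, with a log2 fold change of 2.19 ± 0.03 (SE) and an adjusted p of 8.12e-24 by edgeR. By adjusted p it ranked 13 among the 13463 tested genes, and its log2 fold change was above that of 98.3% of them.

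Bach2, the repressor, was higher in Sora-Treg cells. Ctrl-Treg 1, 2 and 3 held 151, 155 and 159 CPM and Sora-Treg 1, 2 and 3 held 214, 222 and 217 CPM. The gap between the groups was wide against the spread within them. Means were 155 ± 3.97 and 218 ± 3.81 CPM, with a log2 fold change of 0.49 ± 0.03 (SE) and an adjusted p of 4.75e-12 by edgeR. In RefSeq, Bach2 overlaps Bach2os and Foxo3 overlaps Gm38485, whose highest counts here were 15 and 37, against at least 5064 for Bach2 and 5766 for Foxo3. Sgk1 overlaps Gm46215 and Gm18511, for which no counts were at hand, so their part in the Sgk1 reads was not tested.

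**Figure D3:**
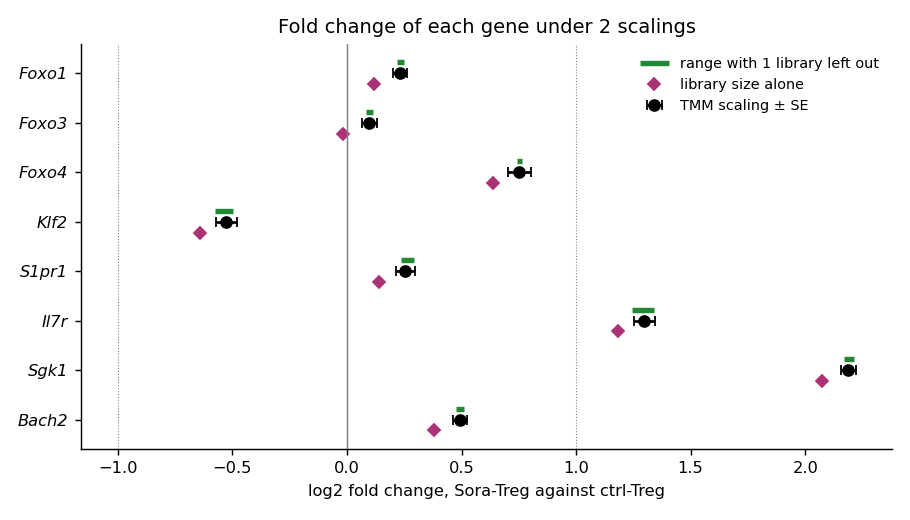
Log2 fold change of each gene (horizontal axis, Sora-Treg against ctrl-Treg) by edgeR with TMM scaling (black, ± SE), with library size alone (diamonds) and as the range when 1 library is left out (green bars). The dotted lines mark a 2-fold change, passed only by Il7r and Sgk1, and the Foxo3 diamond lies at -0.0168, on the other side of 0.

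Ratios of 2 genes within a library do not depend on how libraries are scaled. The log2 ratio of Sgk1 to Foxo1 counts was -0.71, -0.81 and -0.81 in ctrl-Treg 1, 2 and 3 and 1.13, 1.21 and 1.20 in Sora-Treg 1, 2 and 3, so the kinase gene went from fewer reads than Foxo1 to more in every library. Its means of -0.78 ± 0.05 and 1.18 ± 0.04 correspond to a 3.88-fold change of the ratio. The ratio of Il7r to Klf2 changed by 1.82 on the log2 scale, or 3.54-fold, from -0.30 ± 0.05 to 1.52 ± 0.17. S1pr1 against Klf2 changed by 0.78, from 0.12 ± 0.08 to 0.90 ± 0.06, so the receptor gene and the factor known to drive it moved apart. Il7r against Bach2 changed by 0.80, Foxo4 against Foxo1 by 0.52, Bach2 against Foxo1 by 0.26 and Foxo3 against Foxo1 by -0.13 on the log2 scale. The groups did not overlap in any of these 7 ratios. Each ratio had a two-sided exact permutation p of 0.1, the smallest possible with 3 against 3. After adjustment over the 7 ratios this p was also 0.1. Every gene in these ratios was itself separate between the groups with TMM scaling, as were 63.7% of all tested genes. How often ratios of other gene pairs separate was not tested, so the count does not set these pairs apart.

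Levels were compared between genes per length only, as FPKM. With the authors' lengths the order in ctrl-Treg cells was Klf2 (41.9 ± 0.692), Foxo1 (32.6 ± 0.724), Foxo3 (27.7 ± 0.476), S1pr1 (27.3 ± 1.07), Sgk1 (25.4 ± 0.699), Il7r (14.9 ± 0.760), Foxo4 (5.85 ± 0.0307) and Bach2 (2.79 ± 0.0657). Foxo3 and S1pr1 overlapped, and all other neighbors were separate. In Sora-Treg cells Sgk1 led at 107 ± 2.87 FPKM, ahead of Foxo1 (35.3 ± 0.390), Il7r (33.7 ± 2.20), S1pr1 (30.1 ± 0.787), Foxo3 (27.4 ± 0.598), Klf2 (26.9 ± 1.70), Foxo4 (9.09 ± 0.141) and Bach2 (3.63 ± 0.0576). Foxo1 and Il7r overlapped, as did Foxo3 and Klf2. With these lengths Klf2 went from the first place of the 8 to the sixth, and Sgk1 from the fifth to the first.

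The place of Bach2 rests on its length. The deposited FPKM implies 57622 bp for Bach2, against 9940 bp for all its exons in GENCODE M21, and only 6 tested genes were given a greater length. With the GENCODE length Bach2 went from 16.2 ± 0.381 to 21.04 ± 0.334 FPKM, above Il7r (13.3) and Foxo4 (8.47) in ctrl-Treg cells and above Foxo4 (13.2) alone in Sora-Treg cells. Foxo1 also moved, to 20.9 FPKM in ctrl-Treg cells, where it overlapped Sgk1 (21.5), because its length went from 5552 to 8665 bp. Klf2 kept the first place in ctrl-Treg cells and Sgk1 in Sora-Treg cells with either length. In Sora-Treg cells, however, the GENCODE lengths put Klf2 in the fourth place (26.4 FPKM) and Foxo1 in the sixth (22.6 FPKM), where the deposited values had Foxo1 in the second. A length divides both groups alike and leaves the fold changes as they are.

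**Figure D4:**
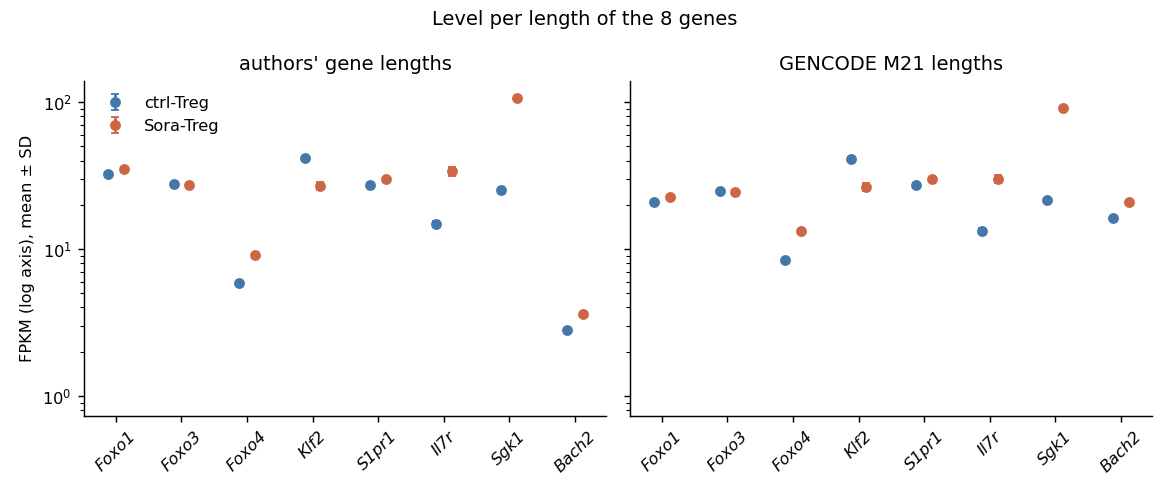
Mean FPKM ± SD (log axis) of the 8 genes in ctrl-Treg and Sora-Treg cells, with the gene lengths behind the deposited values (left) and with GENCODE M21 exon lengths (right). Bach2 is the lowest gene on the left at 2.79 and 3.63 FPKM and sits among the others on the right at 16.2 and 21.04 FPKM.

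The genes whose profile over the 6 libraries lay nearest to each member were sought among 9104 genes, as the Euclidean distance of centred log2 CPM. Nearest to Foxo1 were Slc25a4 (distance 0.0315), Mapk8ip3 (0.0356) and Dnajb1 (0.0359), against a median distance of 0.407 over all candidates. Nearest to Foxo3 were Mlec, Stx8 and Gosr1 (0.0294 to 0.0401), and nearest to Foxo4 were Adam19, Vegfa and Vim (0.0112 to 0.0395). Klf2 lay nearest to Vav2, Pdrg1 and Tsc22d2 (0.0493 to 0.0615) and S1pr1 to Asl, Sall2 and Arrdc1 (0.0382 to 0.0458). Il7r lay nearest to Plcd1, Gpld1 and Fndc3a (0.0825 to 0.101), Sgk1 to Tnfrsf9, Dgat1 and Il12rb2 (0.104 to 0.128) and Bach2 to Ccnl2, Ogt and Tnfrsf13b (0.0351 to 0.0408). None of these 24 genes is one of the 8 or on a list used here, and over 2 groups nearness mostly reflects a like difference between them. Among the 8 genes, Foxo1 and S1pr1 were the closest pair (0.117) and Klf2 and Sgk1 the farthest (3.33).

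Genes of the surrounding pathways were taken from 9 lists, which held 161 genes other than the 8 when each is counted a single time. Of the 149 tested, 72 were higher and 49 lower by edgeR at an adjusted p of 0.05, or 81.2% called against 59.6% of all tested genes, and 28 did not pass. By list the share called ran from 65.4% for FOXO regulators and 68.4% for sphingosine-1-phosphate signaling, both near that background, through 73.3% for T cell targets of FOXO1, 85.7% around Sgk1, 87.5% around Bach2, 88% for FOXO targets of other cell types, 92.3% for the resting state and 92.9% for IL-7 signaling, to all 6 tested genes known to depend on KLF2. The share of all tested genes was not matched for expression level, which affects how readily a gene is called. The lists were also chosen with earlier results of these data known, so a share above that background cannot be taken apart from that choice. Whether the lists differ from other genes of like level was not tested. The median log2 fold change of the 149 genes was 0.09. With library totals alone 58 were higher and 65 lower, so the split between directions depends on scaling (59.5% of called genes higher with TMM and 47.2% with library totals). Of all tested genes that were called, 49.8% were higher with TMM and 33.8% with library totals. A fold over 2 was reached by 13 higher and 6 lower of the 149 genes, against 6.3% and 4.97% of all tested genes.

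Of 26 regulators of FOXO proteins (kinases, phosphatases, 14-3-3 proteins and cofactors), 7 rose, 10 fell and 9 did not pass, with a median log2 fold change of -0.0046 and no fold over 2 (7 higher and 16 lower with library totals). Rictor, a subunit of the mTOR complex that activates AKT and SGK1, rose from 86.1 ± 3.15 to 134 ± 3.98 CPM (log2 fold change 0.63 ± 0.04, edgeR adjusted p = 1.48e-12). Ep300, an acetyltransferase that binds FOXO proteins, rose by 0.50 ± 0.03 and the 14-3-3 gene Ywhah by 0.30 ± 0.03. Mdm2, a ubiquitin ligase, fell by 0.24 ± 0.03 on the log2 scale, the 14-3-3 gene Ywhab fell by 0.18 ± 0.03 and the kinase gene Stk4 fell by 0.17 ± 0.03. Akt1 had a log2 fold change of 0.05, which did not pass, and Akt2 one of 0.21, which did (edgeR adjusted p = 2.36e-05).

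Of 16 other genes known as FOXO1 targets or FOXO1-dependent in T cells, 15 were tested (Rag1 was not), 6 rose, 5 fell and 4 did not pass, with a median log2 fold change of -0.04 (5 higher and 8 lower with library totals). Ctla4, an inhibitory receptor of Treg cells, rose from 383 ± 12.4 to 1108 ± 28.4 CPM (log2 fold change 1.53 ± 0.03, edgeR adjusted p = 7.94e-22). Fasl, a death ligand, rose from 1.47 ± 0.202 to 12.2 ± 0.485 CPM, and Ccr7, a homing receptor of naive T cells, from 512 ± 2.93 to 830.0 ± 16.5 CPM. Eomes, a T-box factor, rose from 2.21 ± 0.120 to 4.53 ± 0.436 CPM, and its fold was not over 2 with library totals. Tcf7, a factor of naive and memory T cells, fell from 404 ± 6.50 to 171 ± 4.89 CPM (log2 fold change -1.24 ± 0.03, edgeR adjusted p = 7.68e-20). Id3, an inhibitor of E proteins, fell from 15.7 ± 0.886 to 4.86 ± 0.706 CPM, and Il6ra from 69.9 ± 1.40 to 50.2 ± 2.52 CPM. Known targets thus moved both ways, as Klf2 and Il7r did. Foxp3, one of the 6 that rose, was at 259 ± 8.99 and 272 ± 4.75 CPM with overlapping groups (log2 fold change 0.07 ± 0.03, edgeR adjusted p = 0.0405), and with library totals it turned to -0.04 (edgeR adjusted p = 0.263).

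Of 27 FOXO targets known from other cell types, 25 were tested, 13 rose, 9 fell and 3 did not pass, with a median log2 fold change of 0.16 (10 higher and 11 lower with library totals). Klf6, a zinc-finger factor, rose from 122 ± 5.28 to 318 ± 15.8 CPM and Bnip3, a mitophagy gene, from 228 ± 4.30 to 537 ± 28.1 CPM, with log2 fold changes of 1.38 ± 0.04 and 1.23 ± 0.03. Ccng2, a cyclin of arrested cells, rose by 0.81 ± 0.03. The stress gene Gadd45b fell by 0.78 ± 0.05 on the log2 scale, the pro-apoptotic gene Bbc3 fell by 0.66 ± 0.05 and the cell cycle inhibitor gene Cdkn1a fell by 0.29 ± 0.03. Trim63 was not in the table and Pdk4 was not tested.

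Of 7 other genes known to depend on KLF2, 6 were tested (Ccr3 was not), and 3 rose and 3 fell, with a median log2 fold change of 0.08 (-0.04 with library totals). The chemokine receptor gene Cxcr3 fell from 12.4 ± 1.64 to 4.80 ± 1.04 CPM (log2 fold change -1.36 ± 0.14, edgeR adjusted p = 9.54e-09), and Itgb7, an integrin of gut homing, rose from 298 ± 6.21 to 483 ± 6.05 CPM. The list also held Cdkn1a, lower as given above, and S1pr4, which rose by 0.45 ± 0.05.

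Around S1pr1, 22 genes of sphingosine-1-phosphate signaling were listed and 19 tested, of which 10 rose, 3 fell and 6 did not pass, with a median log2 fold change of 0.22 (6 higher and 5 lower with library totals). The receptor gene S1pr3 rose from 7.30 ± 1.06 to 34.9 ± 0.437 CPM, by 2.25 ± 0.09 on the log2 scale (edgeR adjusted p = 3.07e-16), against 0.25 for S1pr1. Gna13, a G protein subunit on this list, rose from 421 ± 4.83 to 740.0 ± 24.1 CPM. Grk2, the kinase that desensitizes S1PR1, fell by 0.27 ± 0.03 on the log2 scale, and Sgpp1 and Sgpl1, which break down the ligand, fell by 0.22 ± 0.05 and fell by 0.16 ± 0.04. S1pr5, Spns2 and Plpp3 were not tested.

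Around Il7r, 15 genes of IL-7 signaling were listed and 14 tested, of which 12 rose, 1 fell and 1 did not pass, with a median log2 fold change of 0.27. With library totals 9 were higher, 1 was lower and 4 did not pass. Jak3, the kinase bound to the common gamma chain, rose from 501 ± 7.82 to 793 ± 11.5 CPM (log2 fold change 0.66 ± 0.03, edgeR adjusted p = 3.00e-16). The survival genes Bcl2 and Mcl1 rose by 0.67 ± 0.03 and 0.57 ± 0.03. Stat5a, a transducer of the signal, was the gene that fell, from 387 ± 2.94 to 265 ± 9.18 CPM (-0.55 ± 0.03, edgeR adjusted p = 1.78e-13), whereas Stat5b had a log2 fold change of 0.23. The ligand gene Il7 was not tested.

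Around Sgk1, 16 genes were listed and 14 tested, of which 5 rose, 7 fell and 2 did not pass, with a median log2 fold change of -0.10. With library totals 5 were higher, 8 were lower and 1 did not pass. Ndrg1, a substrate of SGK1, rose from 415 ± 2.39 to 1244 ± 10.4 CPM (log2 fold change 1.58 ± 0.02, edgeR adjusted p = 1.43e-23). Nedd4, of the ubiquitin ligase family that SGK1 acts on, rose by 0.75 ± 0.05. Its relative Nedd4l, of the same family, had a log2 fold change of -0.07, which did not pass (edgeR adjusted p = 0.341). Tsc22d3, a glucocorticoid-induced gene, fell by 0.45 ± 0.05 on the log2 scale. The related kinase gene Sgk3 had a log2 fold change of -0.44, opposite in sign to Sgk1, while Sgk2 was not in the table and Il23r was not tested.

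Around Bach2, 18 partners and genes known to be repressed by BACH2 were listed and 16 tested, of which 9 rose, 5 fell and 2 did not pass, with a median log2 fold change of 0.21 (8 higher and 7 lower with library totals). Nfil3, a factor known to be repressed by BACH2, rose from 58.7 ± 1.36 to 196 ± 6.49 CPM (log2 fold change 1.74 ± 0.04, edgeR adjusted p = 1.03e-20), and Prdm1, which encodes BLIMP1, from 6.11 ± 0.829 to 16.1 ± 0.774 CPM. Ccr4 and Irf4 rose by 0.97 ± 0.03 and 0.57 ± 0.02. Hmox1, a heme-degrading enzyme gene, fell from 17.6 ± 2.23 to 9.67 ± 1.04 CPM, Batf fell by 0.37 ± 0.05 on the log2 scale and Nfe2l2 fell by 0.16 ± 0.05. Ccr9 fell from 0.625 ± 0.276 to 0.116 ± 0.0968 CPM, close to the floor of 3 counts per library. Nfe2 and Cdkn2a were not tested.

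Of 26 genes listed for the resting or naive state of T cells, as regulators or only as markers, 10 rose, 14 fell and 2 did not pass. Their median log2 fold change was -0.15 (-0.27 with library totals, with 8 higher and 15 lower). Satb1, a chromatin organizer, rose from 352 ± 8.12 to 828 ± 11.6 CPM, Klf4 from 5.77 ± 0.311 to 18.1 ± 0.828 CPM and Ly6c1 from 1.18 ± 0.357 to 8.46 ± 0.821 CPM. Slfn2, a gene of T cell quiescence, fell from 179.7 ± 3.29 to 80.3 ± 3.08 CPM, Dapl1 from 1.42 ± 0.471 to 0.368 ± 0.0392 CPM and Ms4a4b fell by 0.66 ± 0.04 on the log2 scale. Ccr7 and Tcf7, given above, are on this list too and moved in opposite directions.

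**Figure D5:**
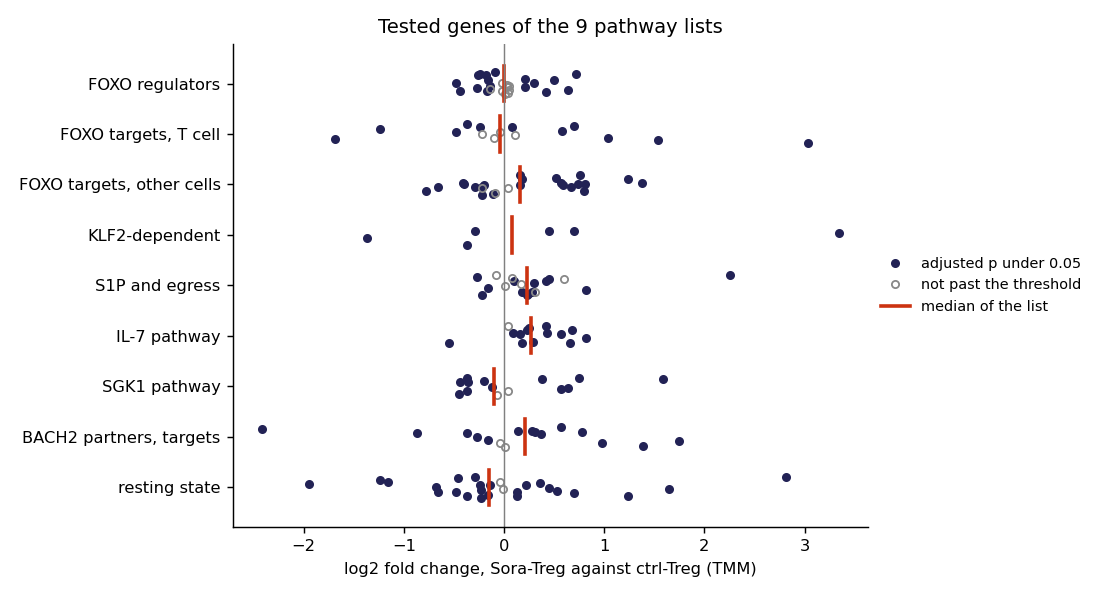
Log2 fold change (horizontal axis) of each tested gene of the 9 pathway lists, filled where the edgeR adjusted p was under 0.05 and open where not, with the median of each list in red. The lists hold genes on both sides of 0, and their medians lie between -0.15 and 0.27.

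The labelled cell type was checked against its markers. Of 12 Treg and T cell markers 11 were in the table. Their summed level was 4840 to 4889 CPM in ctrl-Treg and 8241 to 8348 CPM in Sora-Treg libraries. Il2ra made up the largest part, at 1911 to 1971 and 3737 to 3844 CPM. Foxp3 overlapped between the groups, at 252 to 269 and 268 to 278 CPM, as did Ikzf2, and Cd4 was at 678 to 682 and 689 to 724 CPM. Of the 11, 10 were higher (8 higher and 1 lower with library totals). Among all tested genes 29.7% were higher and 29.9% lower. The sum of 7 myeloid markers was 93.5 and 93.0 CPM in ctrl-Treg 1 and 2, 24.9 in ctrl-Treg 3 and 20.8 to 42.9 in the Sora-Treg libraries, and 5 of the 7 were lower in Sora-Treg cells. Without ctrl-Treg 1 and 2 the log2 fold changes of Foxo1, Foxo4, Klf2, S1pr1, Il7r, Sgk1 and Bach2 were 0.20, 0.75, -0.54, 0.30, 1.23, 2.18 and 0.46 and all passed, on the assumption that ctrl-Treg 3 varies like the Sora-Treg libraries. Foxo3 then had 0.0878 (edgeR adjusted p = 0.166). The sum of 6 B cell markers was 10.02 to 11.1 and 6.18 to 7.81 CPM in the respective groups (all 5 tested were lower) and that of 5 CD8 T and NK cell markers 13.2 to 15.2 and 12.9 to 13.96 CPM (1 of 2 tested was lower). The 7 erythroid and platelet markers summed to at most 0.406 CPM in any library. Of 6 endothelial markers, Pecam1, which T cells also express, made up nearly all of 10.1 to 12.9 CPM in ctrl-Treg and 38.3 to 40.7 CPM in Sora-Treg cells, and the defining gene Cdh5 had at most 1 count. The part of these markers in the other results was not tested, and in bulk RNA more cells of a type cannot be told apart from more RNA per cell.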

How the data were processed

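Sample titles gave each library its group and replicate number. The authors deposited whole-number read counts per gene symbol and FPKM values for the same genes and libraries. Each deposited FPKM value equalled the count divided by the library total and by 1 length per gene, so it was no separate measurement. The study's methods name Bowtie2, GRCm38 and an expectation-maximization estimate for FPKM, whereas the submitters' processing notes name fastp, HISAT2, HTSeq, R 3.2.0, DESeq2 and GRCm39. The annotation release and strand setting were not given in the sources used here, so reads of overlapping genes could not be told apart.

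Total counts were 30727686 to 37717324 per library. A floor of 3 counts equalled 0.0795 to 0.0976 CPM, which covers counting error only. Libraries of a group differed by more than sampling noise (chi-square per degree of freedom 3.36 to 5.91). Counts were tested in edgeR 4.0.16 (R 4.3.3) by its quasi-likelihood method with TMM scaling, the filterByExpr filter, no covariate and Benjamini-Hochberg adjustment over 13463 genes. SE values are those implied by the F statistic. The code was checked on simulated counts. Within-library ratios used counts plus 0.5, and ratios and shares were compared by two-sided exact permutation tests. FPKM was recomputed with GENCODE M21 exon lengths as an alternative chosen after seeing the data.

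The 8 genes, the pathway lists and the marker lists came from general knowledge and were chosen with earlier results of these data known. From each pathway list the text names the 3 genes with the smallest adjusted p in each direction (mean log2 CPM of at least 1) and any gene with a fold over 2. Genes named for comparison were the 3 nearest to each member in centred log2 CPM (prior count 2). Further genes were named with their values known. A few genes picked by the first rule are not reported here. Other scalings, filters, DESeq2 1.42.0, limma 3.58.1 on FPKM, a replicate block and leaving out libraries were alternatives. Same-numbered libraries of the 2 groups did not deviate together (correlations -0.044, 0.059 and 0.030 for numbers 1, 2 and 3), so the numbers were not used as pairs.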

Additional observations from a re-analysis of the deposited data

How the results depend on the processing

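Under 18 alternatives each, Foxo1, Foxo4, Klf2, S1pr1, Il7r, Sgk1 and Bach2 kept their direction and their call, and the counts of 6 or 7 genes higher and 1 lower held. The log2 fold change ranged from 0.11 to 0.25 for Foxo1, 0.56 to 0.76 for Foxo4, -0.64 to -0.50 for Klf2, 0.14 to 0.30 for S1pr1, 1.13 to 1.34 for Il7r, 2.03 to 2.21 for Sgk1 and 0.29 to 0.51 for Bach2. Foxo3 did not hold. Its log2 fold change turned to -0.0168 with library size alone, -0.0167 by limma on log2(FPKM + 1) with or without a filter and -0.0172 on log2(FPKM + 0.1). It lost the call at 0.0606 with upper quartile scaling and at 0.0878 without ctrl-Treg 1 and 2 together, and with 1 library left out it ranged from 0.0816 to 0.116. The cause was not tested, although library size alone lowered the log2 fold change of all genes by a median of 0.12 and per-million FPKM carries the same scaling. The difference in the Foxo1 share of FOXO level was 0.446 percentage points over counts, -1.01 with GENCODE M21 lengths and -0.311 to 0.393 with 1 library left out, where it turned positive without ctrl-Treg 3 (0.177) or Sora-Treg 3 (0.393). GENCODE M21 lengths gave -5.16 for Foxo3 and 6.18 for Foxo4, for which counts gave 3.31. The replicate block, which the numbers do not justify as pairs, gave 0.23 for Foxo1 and changed no member's call. The 7 within-library ratios kept their direction in the 7 alternatives run for each. Among the 52 pathway genes named by rule, 51 kept direction and call in every alternative, and Nfe2l2 lost its call without ctrl-Treg 1 and 2 together. These 52 genes were picked for a small adjusted p or a fold over 2 in the main fit. Keeping a call in refits of the same libraries was therefore likely from the start, and the count does not speak for the other list genes. Depth did not limit the 8 genes, whose lowest count was 909. Foxo6 did not pass the filter on low counts and was not tested.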
